A study of Homo sapiens with 4 samples.

Results

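The miR-424, miR-503, miR-542 and miR-450 microRNAs (miRNAs) are cut from neighbouring hairpins of one polycistronic cluster on the X chromosome. They were examined in extracellular vesicles (EVs) of MDA-MB-231 cells, a long-established triple-negative line of human breast cancer with mesenchymal character, labelled wild type. The 7 members were hsa-miR-424-5p, hsa-miR-424-3p, hsa-miR-503-5p, hsa-miR-542-3p, hsa-miR-542-5p, hsa-miR-450a-5p and hsa-miR-450b-5p, out of 1619 miRNAs listed in at least 1 of 2 count tables. They were chosen by name as one cluster, with their values in 231 -G EV against 231 EV in view, so every value under that comparison is a description and carries no test. All 7 members were listed in the table of replicate 2, and 6 of them also in that of replicate 1, which does not list hsa-miR-542-5p.

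The group 231 EV came from cells moved for 12 h to EV-free DMEM, and the group 231 -G EV from cells moved for 12 h to glucose-free medium. The parental culture of both held fetal bovine serum, and both pellets were collected at 110000 × g for 70 min. Each group had 2 libraries, numbered 1 and 2, and the number also named the preparation. RNA of replicate 1 was pretreated to remove modifications that hinder adaptor ligation and reverse transcription, whereas replicate 2 was built with an NEBNext small RNA kit. A pair is therefore 1 library of each medium with a shared preparation, and what the preparation did cannot be told apart from what else differed between replicates. The labels do not say whether the replicates were separate cultures, so p-values of fits over all 4 libraries measure the spread between these libraries, which may be technical.

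MiRNAs repress messenger RNAs that pair with their seed, which is bases 2 to 8 from the 5′ end. A hairpin holds a possible mature strand in each arm, named 5p and 3p, and usually 1 of these strands is kept by Argonaute while the other is degraded. Cluster members start from a shared primary transcript, and cutting of each hairpin, choice of strand, decay and sorting into EVs can then set them apart. MiR-424 is related to the miR-15 and miR-16 family, known for repressing cyclins and other drivers of the cell cycle, and miR-424 and miR-503 are both known for repressing CDC25A during muscle differentiation. MiR-542-3p is known as a repressor of BIRC5, the apoptosis inhibitor survivin.

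RefSeq (GRCh38.p14) held a mature sequence for 6 of the 7 members, and all of them lie on the minus strand of chromosome X. They are shown because the cluster is grouped by transcript and not by seed. Capitals mark the seed, bases 2 to 8, and miR-16-5p is added as the most abundant seed relative of miR-424-5p.
hsa-miR-424-5p: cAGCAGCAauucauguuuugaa
hsa-miR-16-5p: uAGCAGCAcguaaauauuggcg
hsa-miR-503-5p: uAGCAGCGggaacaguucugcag
hsa-miR-424-3p: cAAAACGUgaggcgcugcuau
hsa-miR-542-5p: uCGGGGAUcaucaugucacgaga
hsa-miR-450a-5p: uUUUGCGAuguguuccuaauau
hsa-miR-450b-5p: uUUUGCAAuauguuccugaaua

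The 6 members had 6 different seeds. The seed of miR-424-5p was shared by 7 mature miRNAs in RefSeq, 6 of them listed in the counts, and the other 5 seeds belonged to 1 mature miRNA each. Counted from 1 at the 5′ end, miR-503-5p and miR-16-5p differed within the seed by G8A alone, the miR-503-5p base standing first. MiR-450a-5p and miR-450b-5p differed at 6 positions, of which G7A lay in the seed. MiR-450a-5p is encoded by 2 hairpins with the same mature sequence, so its reads cannot be split between them.

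In GRCh38 the 6 hairpins spanned 6527 bp, from chrX:134540185 to chrX:134546711. MIR424 (chrX:134546614-134546711) came first in the direction of transcription and overlapped the 5′ end of the long noncoding RNA gene MIR503HG (chrX:134543337-134546632), touching an exon in 3 of its 5 annotated transcripts. MIR503 (chrX:134546328-134546398) lay inside the span of MIR503HG and touched 0 of its exons. MIR542 (chrX:134541341-134541437), MIR450A2 (chrX:134540508-134540607), MIR450A1 (chrX:134540341-134540431) and MIR450B (chrX:134540185-134540262) lay downstream of MIR503HG, outside its span. The map of the hairpins sets these distances below the levels of replicate 2, in which the hairpins nearest the 5′ end and MIR542 gave most of the reads.

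**Figure D1:**
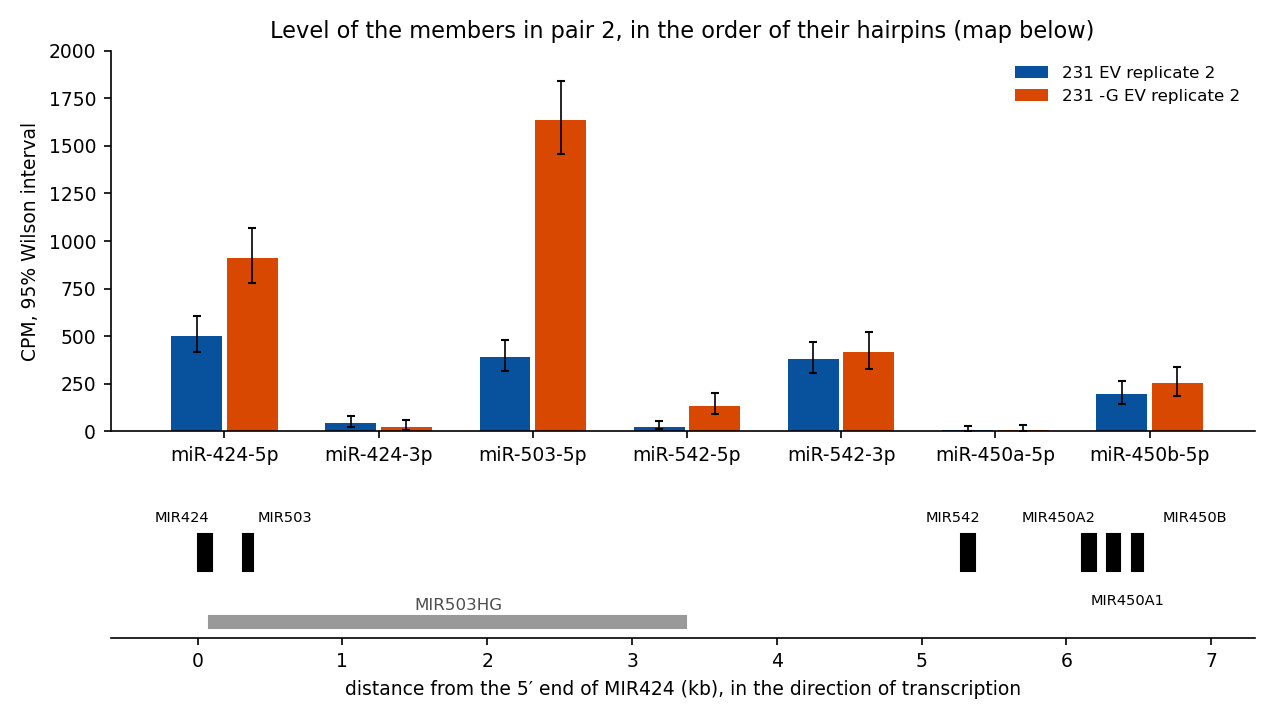
Level of each member in replicate 2 (bars, CPM, counts scaled by the library total to a common base of 1000000, with 95% Wilson intervals, blue for 231 EV and orange for 231 -G EV), in the order of the hairpins, above a map to scale of the 6 hairpins (black) and MIR503HG (grey) by distance in kb from the 5′ end of MIR424. MiR-503-5p stood at 391 CPM in 231 EV and 1638 CPM in 231 -G EV, while miR-542-3p stood at 378 and 415 CPM.

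Replicate 1 was shallow, with totals of 18397 reads for 231 EV and 15597 for 231 -G EV, while those of replicate 2 were 224966 and 170894. At these depths 1 read stood for 54.4 and 64.1 CPM in the first pair and for 4.45 and 5.85 CPM in the second. Where a member had 0 reads, its level could still reach 3 reads, or 163, 192, 13.3 and 17.6 CPM in that order. Reads carry no molecular identifiers, so intervals and limits cover counting error only. The totals of replicate 1 also depended on 2 abundant miRNAs. MiR-182-5p had 9379 reads in 231 EV and 426 in 231 -G EV of replicate 1, against 572 and 427 in replicate 2. For miR-451a these were 3577 and 6364 reads against 295 and 68. Every CPM and ratio of pair 1 by library totals therefore depends on them. MiR-21-5p, miR-221-3p and miR-222-3p, which MDA-MB-231 cells are known to express, took 2.03% and 2.82% of the reads of replicate 1 and 32.3% and 26.2% of those of replicate 2. Red blood cell and serum markers (miR-451a, miR-144-3p and miR-486-5p of red blood cells and miR-122-5p, abundant in liver and serum but also known to be secreted by breast cancer cells) were all above 0 in every library and took 20.1% and 43.1% in replicate 1 against 0.350% and 0.121% in replicate 2.

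The cluster as a whole was a minor part of the EV miRNAs. The 6 members listed in both tables had 4 reads in 231 EV and 4 reads in 231 -G EV of replicate 1, or 217 CPM (95% Wilson interval 84.6 to 559) and 256 CPM (99.7 to 659). In replicate 2 the same members had 341 and 555 reads, or 1516 CPM (1363 to 1685) in 231 EV and 3248 CPM (2989 to 3529) in 231 -G EV. All 7 members together made up 0.154% (0.138 to 0.171) of the reads of 231 EV and 0.338% (0.312 to 0.367) of those of 231 -G EV in replicate 2. By library totals, the libraries of replicate 2 were thus above those of replicate 1 in both media. The total of 231 EV replicate 1 included 9379 reads of miR-182-5p and 3577 of miR-451a, and levels without these were not compared. Within replicate 2 the intervals of both media did not overlap.

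Within pair 2 the summed cluster was 2.14-fold higher in 231 -G EV (95% exact conditional interval 1.87 to 2.46), and 2.20-fold (1.92 to 2.52) with miR-542-5p added. Within pair 1 the ratio was 1.18 with an interval from 0.220 to 6.33, so 4 reads against 4 left room for a fall as well as for the rise of pair 2. Each pair is 1 library against 1 and has no replicate check, and a share of reads cannot tell more of a miRNA per EV from more EVs that carry it. With TMM scaling, which trims extreme miRNAs before setting the library scale, the ratio of pair 1 turned below 1, to 0.657 (0.122 to 3.53), and that of pair 2 was 2.02.

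MiR-503-5p, whose seed differs from that of miR-16-5p at its last base, had the largest gain in reads. Neither library of replicate 1 held a read of it (0 reads each), and it then had 88 reads (391 CPM, 318 to 482) in 231 EV and 280 reads (1638 CPM, 1458 to 1842) in 231 -G EV of replicate 2. In 231 EV of replicate 2 it stood below miR-424-5p and close to miR-542-3p, and in 231 -G EV it was the most abundant form of the cluster. The ratio was 4.19 (3.29 to 5.38). Its share of the cluster reads was 25.4% (21.1 to 30.3) in 231 EV and 48.4% (44.4 to 52.5) in 231 -G EV. Without miR-503-5p, the ratio of the remaining 5 members listed in both tables was 1.43 (1.20 to 1.70).

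MiR-424-5p, the kept strand of its hairpin and the member with the miR-16 seed, had 1 read in 231 EV and 0 reads in 231 -G EV of replicate 1. In replicate 2 it had 113 reads (502 CPM, 418 to 604) in 231 EV and 156 reads (913 CPM, 780 to 1068) in 231 -G EV. By library totals, both libraries of replicate 2 lay above the 3-read limits of replicate 1. Those limits would be higher with miR-182-5p and miR-451a left out of the totals, which was not compared. The ratio of the 2 libraries of replicate 2 was 1.82 (1.42 to 2.34). MiR-424-3p, from the other arm, had 0 reads in replicate 1, and 10 reads (44.5 CPM) in 231 EV and 4 reads (23.4 CPM) in 231 -G EV of replicate 2. Its ratio, 0.527 (0.121 to 1.83), was the only one of the 7 below 1, with an interval that included 1.

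MiR-542-3p was the member with most reads in replicate 1, with 2 reads (109 CPM) in 231 EV and 3 reads (192 CPM) in 231 -G EV. It had 85 reads (378 CPM, 306 to 467) and 71 reads (415 CPM, 329 to 524) in replicate 2. All 4 libraries overlapped within their counting intervals, and the ratios of 1.77 (0.203 to 21.2) in pair 1 and 1.10 (0.791 to 1.52) in pair 2 both had intervals that included 1. MiR-542-5p, the opposite strand of the same hairpin, had 5 reads (22.2 CPM, 9.49 to 52.0) in 231 EV and 23 reads (135 CPM, 89.7 to 202) in 231 -G EV of replicate 2. These intervals did not overlap, and the ratio was 6.06 (2.25 to 20.4).

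The miR-450 hairpins lie at the far end of the cluster. MiR-450b-5p had 0 reads in replicate 1, then 44 reads (196 CPM, 146 to 263) in 231 EV and 43 reads (252 CPM, 187 to 339) in 231 -G EV of replicate 2, with a ratio of 1.29 (0.825 to 2.00). MiR-450a-5p had 1 read in each of the 4 libraries, which gave 54.4 and 64.1 CPM in replicate 1 and 4.45 and 5.85 CPM in replicate 2. A difference of miR-450a-5p was not detectable at this depth, its ratios being 1.18 (0.0150 to 92.6) and 1.32 (0.0168 to 103). Although 2 hairpins encode miR-450a-5p and 1 encodes miR-450b-5p, reads of the latter were the more numerous in replicate 2.

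**Figure D2:**
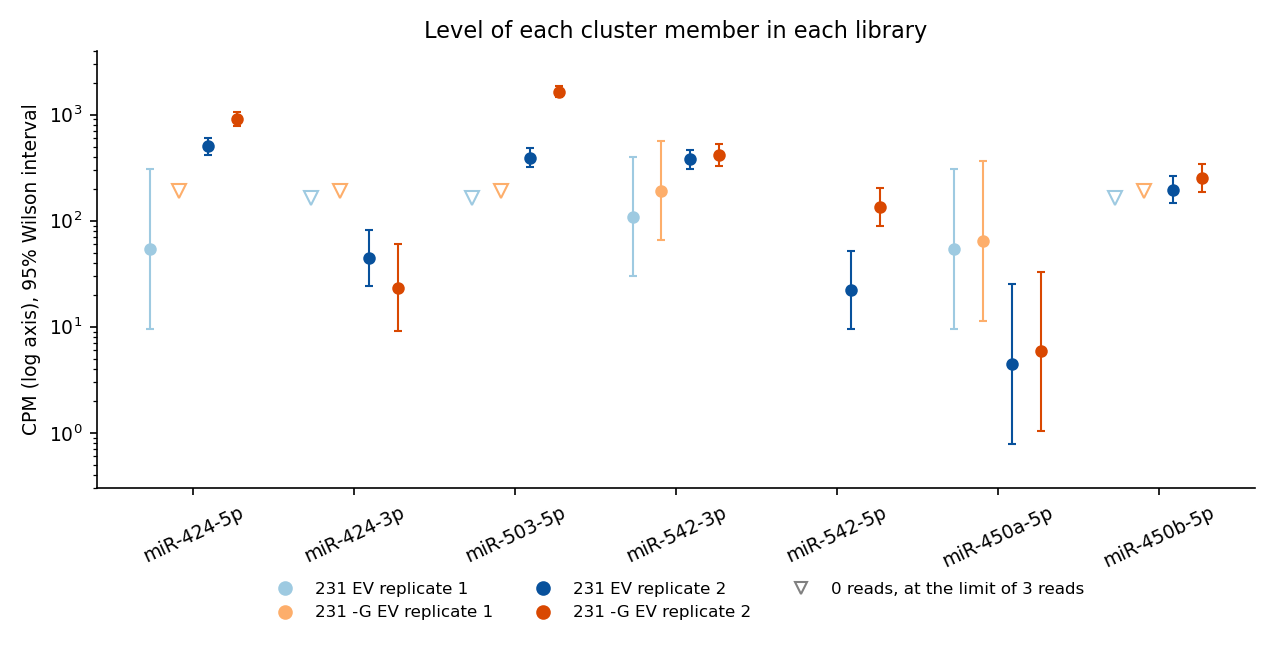
CPM of each member (log axis) in each of the 4 libraries, with 95% Wilson intervals as bars and open triangles at the limit of 3 reads where a member had 0 reads. The intervals of miR-503-5p (391 against 1638 CPM), miR-424-5p (502 against 913 CPM) and miR-542-5p (22.2 against 135 CPM) did not overlap between the media in replicate 2, while replicate 1 held at most 3 reads of any member.

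In pair 2, the interval of the ratio lay above 1 for 3 of the 7 members (miR-503-5p, miR-542-5p and miR-424-5p) and below 1 for 0. Across the 618 miRNAs with a read in that pair, 11.3% had an interval above 1 and 11.2% an interval below 1. The members were selected on this comparison, so nothing is read from their count against that background. Among the 221 miRNAs with at least 20 reads in the pair, miR-542-5p held rank 2 and miR-503-5p rank 4 by ratio, followed by miR-424-5p at rank 30, miR-450b-5p at 78 and miR-542-3p at 99. The 5 members with that many reads had a median ratio of 1.82 and all of them lay above 1. The 221 miRNAs had a median of 1.02 with 80% of the values between 0.483 and 2.09. The filter left out miR-450a-5p and miR-424-3p, the member below 1 (0.527). MiR-542-5p passed it through its 23 reads in 231 -G EV, against 5 in 231 EV. Nothing is read from these ranks and medians either.

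Library scale bore on these ratios. MiR-16-5p, which served beside U6 as an RT-qPCR reference in the study, was itself 1.58-fold (1.54 to 1.61) higher by library totals in 231 -G EV of pair 2. Relative to miR-16-5p, the summed cluster was at 1.36 (1.18 to 1.56), miR-503-5p at 2.66 (2.08 to 3.42), miR-542-5p at 3.84 (1.43 to 12.9) and miR-424-5p at 1.15 (0.899 to 1.48). On that scale the interval of miR-424-5p included 1, miR-542-3p turned below 1 at 0.698 (0.501 to 0.968), and miR-450b-5p turned below 1 at 0.816 (0.523 to 1.27).

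**Figure D3:**
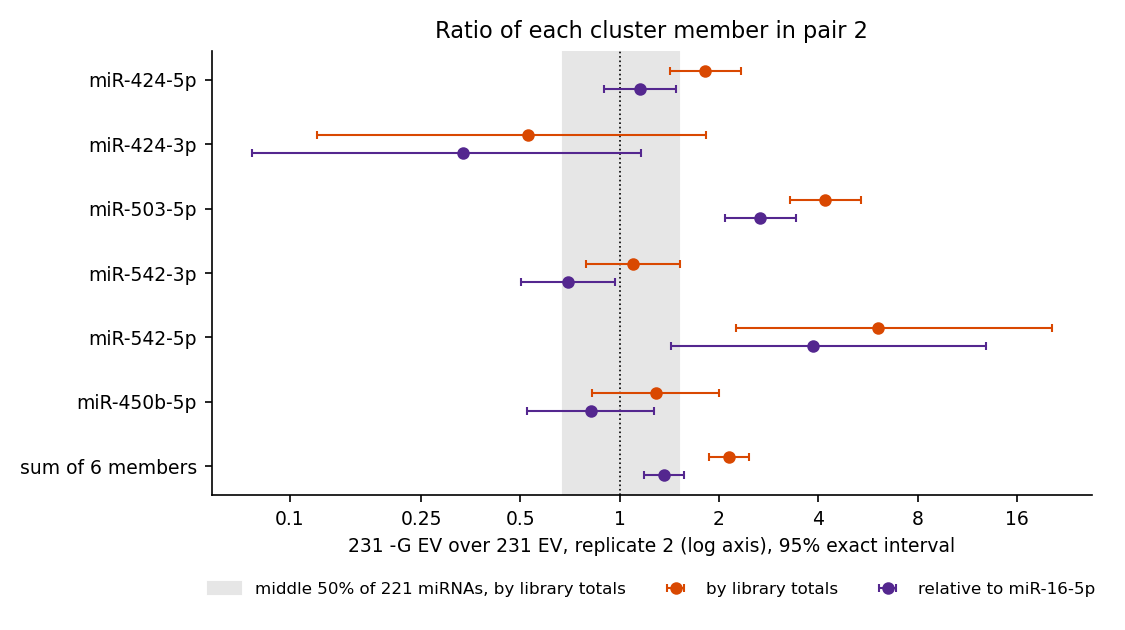
Ratio of 231 -G EV to 231 EV (log axis, 95% exact conditional intervals) for each member and for the summed 6 members listed in both tables, in pair 2, by library totals (orange) and relative to miR-16-5p (purple), without miR-450a-5p, which had 1 read in each library. The grey band holds the middle 50% of the ratios of 221 miRNAs, from 0.671 to 1.52, and the summed cluster stood at 2.14 by library totals and at 1.36 relative to miR-16-5p.

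To ask whether cluster partners moved together, reads of a member were divided by reads of another in the same library, which removes the library scale. The 6 members with at least 10 reads in pair 2 formed 15 such pairs, and the change in the ratio between the media had an interval that excluded 1 in 9 of them and included 1 in 6. Over the 37950 pairs formed by all 276 miRNAs with at least 10 reads in pair 2, the interval excluded 1 in 40.8%, and nothing is read from the members against it, since they were chosen on this comparison. Reads of miR-424-5p per read of miR-503-5p, from hairpins next to each other, went from 1.28 in 231 EV to 0.557 in 231 -G EV, a change of 0.434-fold (0.304 to 0.619). Reads of miR-503-5p per read of miR-542-3p went from 1.04 to 3.94, a change of 3.81-fold (2.51 to 5.77), and per read of miR-450b-5p from 2.00 to 6.51, a change of 3.26-fold (1.95 to 5.43). MiR-503-5p thus drew away from miR-424-5p, miR-542-3p and miR-450b-5p. MiR-424-5p also gained on miR-542-3p, from 1.33 to 2.20 reads per read, a change of 1.65-fold (1.09 to 2.51). MiR-542-3p and miR-450b-5p kept closer to each other, at 1.93 and 1.65 reads per read, a change of 0.855-fold (0.489 to 1.50). MiR-503-5p and miR-542-5p, the members with the highest ratios, had a change of 0.692-fold (0.200 to 1.94). The wide intervals of the last 2 pairs leave room for unequal change as well.

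Pair 2 also held 6 other clusters in which at least 3 hairpins each gave a miRNA of 20 reads or more, hairpins being joined when they lay within 10000 bp on a strand and miRNAs of several loci being left out. These limits were chosen after seeing the data, and clusters of fewer such hairpins were not examined. The other clusters held only miRNAs with a mature sequence in RefSeq. For this cluster every member with 20 reads or more was used, also miR-542-3p, which has no such sequence. Among these 7 this cluster, so treated, had the widest range, from 1.10 for miR-542-3p to 6.06 for miR-542-5p, or 5.51-fold. In it 5 of 5 ratios were above 1, since miR-424-3p (0.527) fell below 20 reads. By the rule of the other clusters its lowest ratio would be 1.29, of miR-450b-5p, which narrows the range. The upper end rests on the 5 and 23 reads of miR-542-5p, and without it, an alternative chosen after seeing the data, the range was 3.81-fold, still with miR-542-3p at its low end. The miR-17 cluster on chromosome 13 ranged 3.80-fold and the miR-25 cluster on chromosome 7 ranged 3.24-fold, each over 6 miRNAs. The miR-99b cluster on chromosome 19 and the miR-379 cluster on chromosome 14 had the narrowest of the 7 ranges, 1.24-fold each. The ranges of the other clusters are given for scale, since the members were chosen on these ratios. All 7 ranges come from 1 pair of libraries and numbers of reads that differ between clusters, and the difference between clusters was not tested.

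The arms of a hairpin were compared as the 5p share of its reads. MiR-542 was read mainly from its 3p arm, with a 5p share of 5.56% (95% Wilson interval 2.40 to 12.4) in 231 EV and 24.5% (16.9 to 34.0) in 231 -G EV of replicate 2. The rise of 18.9 percentage points came with a nearly level 3p arm, at 85 and 71 reads, and an odds ratio of 5.46 (1.90 to 19.3). MiR-424 was read mainly from its 5p arm, at 91.9% (85.7 to 95.5) and 97.5% (93.7 to 99.0), and its odds ratio of 3.44 had an interval from 0.961 to 15.4. The interval of the odds ratio thus excluded 1 for miR-542 and included it for miR-424.

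MiR-503 was at 96.7% (90.8 to 98.9) and 99.3% (97.5 to 99.8) 5p, its 3p arm having 3 and 2 reads. MiR-450b was at 100% (92.0 to 100) and 100% (91.8 to 100), with 0 reads of the 3p arm. The 3p forms of the miR-450a hairpins had 0 and 3 reads (miR-450a-1-3p) and 2 and 1 reads (miR-450a-2-3p), with 231 EV given first. Of 54 hairpins with at least 10 reads of each arm in pair 2, the 5p share was higher in 231 -G EV, with an interval of the odds ratio above 1, for 9 (16.7%) and lower for 13. The median absolute change of the 54 was 3.91 percentage points, and miR-542 held rank 5. In replicate 1 the miR-424 hairpin had 1 read of its 5p arm in 231 EV and 0 reads in 231 -G EV, so a comparison of its arms between replicates was not possible at this depth (231 EV, Fisher's exact test, p = 1).

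**Figure D4:**
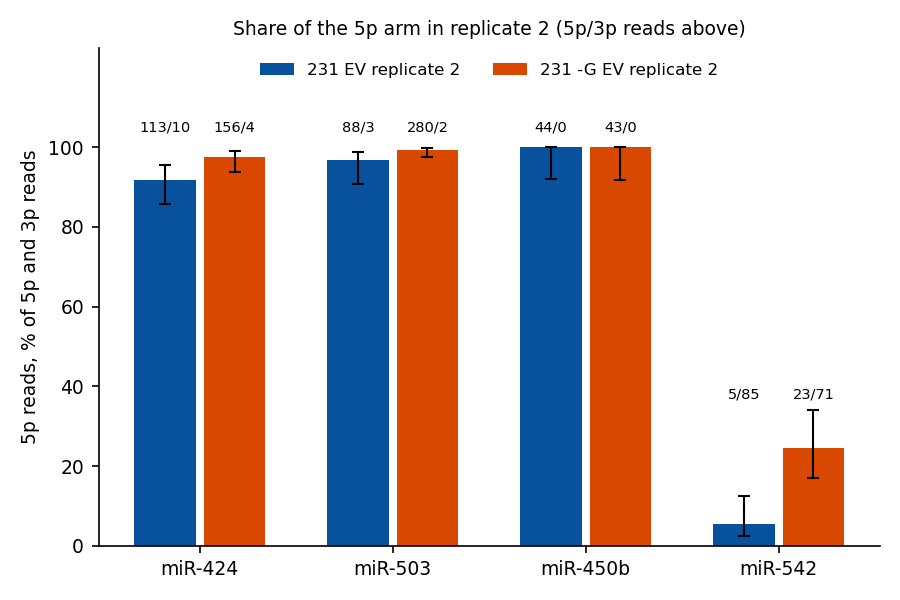
Share of the 5p arm (%, bars with 95% Wilson intervals) among the 5p and 3p reads of 4 hairpins in replicate 2, with the reads of each arm above the bars. MiR-542 stood at 5.56% in 231 EV and 24.5% in 231 -G EV, and the other 3 hairpins were at 91.9% or above in both libraries.

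Fitted over both pairs with edgeR's quasi-likelihood test, 231 -G EV against 231 EV called 0% of 384 miRNAs, those that both tables list and that had reads in at least 2 libraries, and 5 had an unadjusted p under 0.05. DESeq2 and limma called 0 as well. The log2 fold changes of the 6 members in that fit were 2.05 (SE 1.42) for miR-503-5p, 0.45 (SE 1.34) for miR-424-5p, 0.36 (SE 1.56) for miR-450b-5p, 0.34 (SE 1.20) for miR-542-3p, 0.28 (SE 2.88) for miR-450a-5p and -0.88 (SE 2.44) for miR-424-3p. Their median was 0.35, beside 0.20 over the 384 miRNAs, a median that TMM scaling moved to -0.14. The sign of miR-424-5p turned with DESeq2 (-0.11) and limma (-2.47), and that of miR-450a-5p turned with TMM scaling (-0.14), with DESeq2 size factors (-0.01) and with library totals that leave out miR-182-5p (-0.17) or also miR-451a (-0.15).

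The contrast of replicate 2 with replicate 1 was not used to choose the members, and it asked in which preparation the cluster was seen. MiR-542-3p and miR-450a-5p, the members above 0 in all 4 libraries, did not pass the test. The other 4 members tested had reads in at most 1 library of replicate 1, so they met the filter through replicate 2, the preparation in which they were high, and their fitted values are a description and no support for a difference. Over the 384 miRNAs edgeR called 66, of which 37 (9.64%) were higher and 29 (7.55%) lower in replicate 2. Among the 37 were miR-424-5p, with a log2 fold change of 4.47 (SE 1.62, edgeR adjusted p = 0.0394), and miR-503-5p, with 9.69 (SE 2.71, edgeR adjusted p = 0.00489). With 0 reads of miR-503-5p in replicate 1, its value depends on the prior count of the fit and is no bound.

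Members without a call in edgeR were miR-450b-5p at 7.58 (SE 3.54, adjusted p = 0.137), miR-424-3p at 4.95 (SE 6.37, adjusted p = 0.713), miR-542-3p at 1.43 (SE 1.28, adjusted p = 0.551) and miR-450a-5p at -3.26 (SE 3.16, adjusted p = 0.597). MiR-450b-5p, with 0 reads in replicate 1, was past the threshold in 1 alternative, the edgeR fit with no medium block (7.59, adjusted p = 0.0229). MiR-503-5p was not past the threshold with limma (adjusted p = 0.0771), and without either library of replicate 2 it fell out of the filter and could not be tested. The adjusted p of miR-424-5p ran from 0.00242 to 0.155 over 12 alternatives. It missed the threshold when the totals left out miR-182-5p and miR-451a (0.113), with DESeq2 (0.0834), with limma (0.143), without 231 EV replicate 2 (0.0532) and without 231 -G EV replicate 2 (0.155). With totals that leave out both miRNAs, the split of all calls moved from 37 higher and 29 lower to 26 higher and 53 lower, and the median log2 fold change of all miRNAs from 0.75 to -0.47.

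Reads were also compared between the replicates of each medium by Fisher's exact test, a comparison of 1 library with 1 library chosen after seeing the data. It takes reads as independent, so its p-values cover counting error only and make no call on a difference between replicates. It also rests on library totals. In replicate 1, miR-182-5p held 9379 and miR-451a 3577 of the 18397 reads of 231 EV. MiR-451a held 6364 of the 15597 reads of 231 -G EV. Totals that leave both out would lower the reads due in replicate 1, and Fisher's test was not run on them. An adjusted p under 0.05 with a higher share in the library of replicate 2 was found for 20.5% of 424 miRNAs in 231 EV and 15.3% of 413 in 231 -G EV. On counting error alone it was found for 2 of the 6 members in each medium, miR-424-5p and miR-503-5p. At the share of replicate 2, the depth of replicate 1 would have held 9.24 reads of miR-424-5p in 231 EV, where 1 was found (adjusted p = 0.00844, Fisher's exact test), and 14.2 reads in 231 -G EV, where 0 were found (adjusted p = 9.04e-06, Fisher's exact test). For miR-503-5p the reads due were 7.20 in 231 EV and 25.6 in 231 -G EV, and 0 were found in both. The 95% exact interval of its ratio between the libraries, with counting error alone, began at 1.91 in 231 EV and at 6.88 in 231 -G EV.

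For miR-542-3p, 6.95 and 6.48 reads were due in replicate 1, 231 EV first, and 2 and 3 were found (adjusted p = 0.177 and 0.476, Fisher's exact test). MiR-450b-5p had 0 reads in both, with 3.60 and 3.92 due (adjusted p = 0.179 and 0.123, Fisher's exact test). Neither member had an adjusted p under 0.05 in either medium. With 0.818 and 0.365 reads due and 0 found, a lower level of miR-424-3p in replicate 1 was not detectable at this depth. MiR-450a-5p went the other way, with 1 read found in each library where 0.0818 and 0.0913 were due (adjusted p = 0.290 and 0.296, Fisher's exact test).

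**Figure D5:**
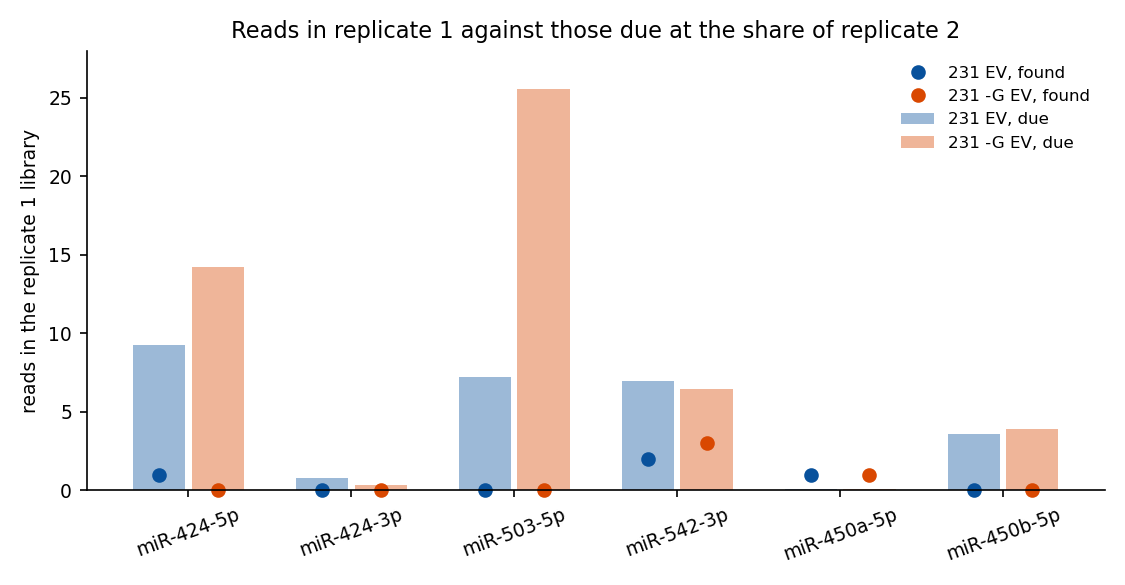
Reads of each member due in replicate 1 at its share of the library total in replicate 2, beside the reads found, for 231 EV and 231 -G EV. The totals of replicate 1 held many reads of miR-182-5p (231 EV) and miR-451a (both media), which raises the reads due. MiR-503-5p had 7.20 and 25.6 reads due and 0 found, and miR-424-5p had 9.24 and 14.2 due with 1 and 0 found.

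The preparations also differed in the markers of other sources. The red blood cell and serum markers made up 20.1% and 43.1% of the reads of replicate 1. Nearly all of this was miR-451a, with 3577 of 3703 reads in 231 EV and 6364 of 6720 in 231 -G EV. EdgeR called 2 of these 4 lower in replicate 2 (miR-451a and miR-486-5p), beside 7.55% of all 384 miRNAs. It did not call miR-144-3p or miR-122-5p. MiR-122-5p was less uneven than the sum in 231 EV, at 924 CPM in replicate 1 and 1325 CPM in replicate 2. The epithelial markers, 7 miRNAs of the miR-200 family, miR-203a and miR-205 that MDA-MB-231 is known to express little, took 0.114% and 0.583% in replicate 1 and 0.0867% and 0.0205% in replicate 2, and 2 of 7 were called lower. MiR-205-5p went the other way, with 0 reads in 231 EV and 1 read in 231 -G EV of replicate 1 against 109 and 3 reads in replicate 2 (log2 fold change 2.48, edgeR adjusted p = 0.512). The muscle and stroma markers took 2.45% and 2.84% in replicate 1 and 0.225% and 0.109% in replicate 2, with 2 of 4 tested called lower. All 4 serum markers and 6 or 7 of the 7 epithelial markers were above 0 in every library, whereas miR-206, a defining muscle marker, had 0 reads in 231 EV of replicate 1 and in both libraries of replicate 2, against 98 reads in 231 -G EV of replicate 1. Within pair 2 all 3 sums were lower in 231 -G EV, at 0.344-fold (0.294 to 0.402), 0.236-fold (0.160 to 0.340) and 0.484-fold (0.407 to 0.574), while the cluster was higher. Of the 195 epithelial reads in 231 EV of that pair 109 were miR-205-5p, and without it, an alternative chosen after seeing the data, the epithelial ratio was 0.490 (0.316 to 0.743). Within pair 1 the same 3 sums were higher in 231 -G EV, at 2.14-fold (2.06 to 2.23), 5.11-fold (3.15 to 8.65) and 1.16-fold (1.01 to 1.32), while the cluster stood at 1.18 (0.220 to 6.33). The muscle and stroma sum of pair 1 joined opposite directions, since the stromal miR-143-3p had 447 reads in 231 EV and 210 in 231 -G EV (0.554-fold, 0.468 to 0.654), whereas the muscle miRNA miR-1-3p had 3 and 122. Their part in the values of the cluster was not tested.

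Seed relatives of miR-424-5p from other chromosomes were set beside the cluster. The sum of miR-15a-5p, miR-15b-5p, miR-16-5p, miR-195-5p and miR-497-5p made up 7.46% of reads in 231 EV and 11.6% in 231 -G EV of replicate 2, a ratio of 1.56 (1.53 to 1.59), and its ratio in pair 1 was 0.728 (0.515 to 1.02). Of 4 relatives tested between the replicates, edgeR called miR-16-5p alone, higher in replicate 2.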

How the data were processed

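Small RNA of EVs from MDA-MB-231 cells was sequenced in 4 libraries, 2 of 231 EV and 2 of 231 -G EV. The authors deposited whole-number read counts per mature miRNA in 2 tables, of 1315 miRNAs (replicate 1) and 843 (replicate 2), with 539 in both. Beside them they deposited CPM values for replicate 1 and, under the name TPM, values for replicate 2. Both kinds of deposited value, CPM and TPM, equalled the count over the library total times 1000000, with no length term. The submitters' processing notes name FastQC, cutadapt, Bowtie, Bowtie2, StringTie, edgeR and hg38, and the methods of the study add removal of Rfam matches and a search of miRBase. Neither separates the preparations. For a miRNA that only 1 table lists, the other pair was taken as unknown.

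Intervals of shares were 95% Wilson intervals, and those of ratios were exact conditional intervals (SciPy 1.17.1). Counts were fitted in edgeR 4.0.16 under R 4.3.3 (quasi-likelihood test, deposited totals, terms for replicate and medium) over the 384 miRNAs that both tables list and that had reads in at least 2 libraries. Calls were two-sided, at a Benjamini-Hochberg adjusted p under 0.05 with a log2 fold change beyond 1 in size. The SE given with edgeR values was worked back from the log2 fold change and the F statistic of its test, and is an approximation. The replicate number pairs the libraries by preparation, per the labels. Libraries with the same number deviated together from the group means (correlation 0.59), and common dispersion fell from 1.60 to 0.301 once the replicate block was added. Fold changes within a pair used no pseudocount, and limma used log2(CPM + 1). The edgeR, Fisher and interval steps were tested on simulated data. Other scalings, filters, DESeq2 1.42.0, limma 3.58.1, fits without a block and fits without single libraries were tried. Sequences and hairpin positions came from RefSeq (GRCh38.p14) and gene models from GENCODE. Every member was named. The members, marker lists and relatives were chosen with earlier results of these data known.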

Additional observations from a re-analysis of the deposited data

Results flagged for a closer look

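Both miRNAs below were listed in the table of 1 replicate only and so entered no fit over both pairs. MiR-542-5p, a member of the cluster, had 23 reads in 231 -G EV against 5 in 231 EV of replicate 2, a ratio of 6.06 (95% exact interval 2.25 to 20.4). MiR-363-3p, of the neighbouring polycistron on the X chromosome, had 31 reads in 231 -G EV against 15 in 231 EV of replicate 1, a ratio of 2.44 (1.28 to 4.86). Groups of 2 libraries could not be examined for outlying samples.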

How the results depend on the processing

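For 231 -G EV against 231 EV, edgeR called 0 miRNAs with the replicate block, and 0 with no replicate block. It called 1 with DESeq2 size factors, with totals that leave out miR-182-5p, with totals that leave out miR-182-5p and miR-451a, and with every miRNA above 0 in at least 1 library, and in none of these was it a member of the cluster. The adjusted p of the members ran from 0.988 to 1.00 over these alternatives. For replicate 2 against replicate 1, the 66 calls became 0 with limma (145 at an unadjusted p under 0.05), 120 with no medium block, and 140 (231 EV) and 137 (231 -G EV) by Fisher's exact test of reads. Leaving out 1 library gave 25 to 90 calls, 29 without 231 EV replicate 2 and 25 without 231 -G EV replicate 2. The summed cluster of pair 2, 2.14, was 1.36 relative to miR-16-5p and 1.43 without miR-503-5p, and the cause was not tested. In pair 1 the ratio was below 1 with TMM scaling (0.657), with miR-182-5p left out (0.594) and with both left out (0.618), and above 1 relative to miR-16-5p (1.75), each interval including 1. Without replicate 1 or without replicate 2, the comparison of the media rests on a single pair and has no test. Replicate 1 held 4 reads of the cluster in each medium, and 3 members had 0 reads in both of its libraries.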

Other observations

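The neighbouring polycistron on the X chromosome, headed by MIR106A at 369906 bp from the cluster, was read unevenly. MiR-363-3p, listed for replicate 1 alone, had 15 reads (815 CPM) in 231 EV and 31 reads (1988 CPM) in 231 -G EV. MiR-106a-5p had 1 read (231 EV) and 3 reads (231 -G EV) in replicate 1 and 1 read in each library of replicate 2, miR-20b-5p had 3 and 2 reads and then 1 read in each, and miR-18b-5p had 0 reads in all 4 libraries. MiR-19b-3p and miR-92a-3p, which are also made from other loci, gave most of its reads, with ratios of 231 -G EV to 231 EV of 2.04 and 0.977 in pair 2.

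The miRNAs whose levels over the 4 libraries were most like the summed cluster, by Euclidean distance between centred log2(CPM + 1) values, were miR-15b-3p (0.33), miR-107 (0.42), miR-19a-3p (0.54), miR-222-3p (0.78) and miR-30e-5p (0.80), among 152 miRNAs above 0 in every library with a median distance of 3.29. MiR-15b-3p had 1 and 1 reads in replicate 1 and 73 and 107 reads in replicate 2. These distances rest on 4 libraries.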
